A study of Mus musculus with 12 samples.

Results

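The Hox genes were taken as every gene of the count table whose symbol is Hoxa, Hoxb, Hoxc or Hoxd followed by digits only, which gave 28 of 33352 genes. They comprised 9 genes of cluster A on chromosome 6, 9 of cluster B on chromosome 11, 7 of cluster C on chromosome 15 and 3 of cluster D on chromosome 2, and the other 11 of the 39 annotated mouse Hox genes were not analysed here. RNA came from 12 libraries of cells sorted by flow cytometry out of the aorta and its surrounding perivascular fat of wild-type CD-1 male mice aged 13 weeks, with no transgene, Cre or treatment in any group. The 4 sorted populations, with 3 libraries each, carry the names Progenitor, Intermediate, SMC1 and SMC2, where SMC stands for smooth muscle cell. The sources used here do not state the sort gates or whether a library pooled several animals. The labels do not say that the libraries of a group came from separate animals, so the spread behind each p-value may be a technical one.

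Hox genes encode homeodomain transcription factors that give cells their place along the head-to-tail axis of the embryo. Genes that hold the same place in their clusters are paralogues and share a number, and low numbers are used from anterior levels of the body while high numbers are used only towards the tail. Mesenchymal and vascular cells keep a regional Hox combination into adult life, and Hox proteins bind DNA together with cofactors of the Pbx and Meis families. Within each of the 4 clusters the genes lie in order of their number.

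The homeobox is the stretch of coding sequence, 180 bases long, that encodes the DNA-binding homeodomain. The results turn on paralogue groups 5 and 8, in which genes of different clusters differed in level between the populations, so the homeoboxes of 3 of their members are shown from 5′ to 3′ on the coding strand. Capitals mark the 18 bases that code for the core of the recognition helix. The sequences were read from GENCODE M21 transcripts (GRCm38, which is mm10), and each lies within exon 2 of its transcript.
Hoxa5: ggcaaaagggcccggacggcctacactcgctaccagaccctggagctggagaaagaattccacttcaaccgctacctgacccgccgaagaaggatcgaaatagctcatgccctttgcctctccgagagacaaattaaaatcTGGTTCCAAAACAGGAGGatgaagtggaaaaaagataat
Hoxc8: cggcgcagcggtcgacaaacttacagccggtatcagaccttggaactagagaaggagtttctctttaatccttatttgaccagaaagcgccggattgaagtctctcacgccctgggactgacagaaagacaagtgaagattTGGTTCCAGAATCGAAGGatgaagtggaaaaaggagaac
Hoxd8: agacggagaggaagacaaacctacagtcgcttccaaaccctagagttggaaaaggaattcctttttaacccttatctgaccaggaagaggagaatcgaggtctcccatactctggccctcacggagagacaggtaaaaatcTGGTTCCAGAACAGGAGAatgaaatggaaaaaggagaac
They lie at chr6:52202632-52202811 (minus strand), chr15:102992571-102992750 (plus strand) and chr2:74706525-74706704 (plus strand), in that order. The homeoboxes of Hoxc8 and Hoxd8, which share a paralogue number, matched at 73.3% of their bases. Over all 28 members the 24 pairs with the same paralogue number had a median identity of 82.5% (71.7% to 93.9%), against 64.4% for the 96 pairs within a cluster and 62.8% for the 258 other pairs. Apart from Hoxc5 and Hoxc10, whose annotated exons overlap, the longest run of identical bases between the transcripts of any 2 members was 52 bases, shared by Hoxb4 and Hoxa6.

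The libraries held between 13258631 and 22647175 counted reads. Levels are given as CPM, read counts scaled to the size of the library with TMM factors, and levels of different genes are compared only as RPKM, which is CPM per kilobase of exon. A gene was called where edgeR's quasi-likelihood test gave a Benjamini-Hochberg adjusted p below 0.05 over the 19016 genes tested. Smooth muscle markers summed to between 29490 and 35680 CPM in SMC1 and to between 19440 and 27760 CPM in SMC2, against at most 646 CPM in the other populations, and all 7 were detected. Fibroblast and progenitor markers summed to between 44580 and 55040 CPM in Progenitor and to between 35680 and 42910 CPM in Intermediate, against at most 1736 CPM in the SMC populations. SMC2 also held the 5 adipocyte markers at a summed 197.4 to 240.7 CPM (at most 10.57 CPM elsewhere) and the 6 Schwann and neural markers at 47.86 to 94.68 CPM (at most 28.91 CPM elsewhere), and Intermediate held the 7 mesothelial markers at 160.3 to 390.6 CPM (at most 65.34 CPM elsewhere). SMC1 held the 7 endothelial markers at 307.8 to 413.8 CPM (at most 237.8 CPM elsewhere), the 5 pericyte markers at 2329 to 2960 CPM (at most 1426 CPM elsewhere) and the 6 leukocyte markers at 107.9 to 522.5 CPM (at most 217.9 CPM elsewhere). The leukocyte sums of SMC1 overlapped with those of Progenitor and SMC2, and Lyz2 stood at 222.6 ± 225.0 CPM in SMC1. Not every member followed its sum. Notch3, a pericyte marker, stood at 431.9 CPM in SMC2 and 51.6 CPM in SMC1, and Kcnj8 was highest in Intermediate. Wt1, a mesothelial marker, stood at 5.696 CPM in Intermediate and 17.9 CPM in Progenitor. The endothelial marker Tek and the neural markers S100b and Tubb3 were highest in Progenitor. No marker of these lists was at 0 in all libraries of a group. The part of these other cell types in the Hox results was not tested. In sorted bulk RNA, fewer expressing cells and less RNA per cell cannot be told apart.

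Of the 28 Hox genes, 21 held enough reads to be tested. The 7 that did not were Hoxa10, Hoxb1, Hoxb8, Hoxc10, Hoxc12, Hoxd9 and Hoxd12, and their highest value in any library was 0.695 CPM. Filtering asked for about 10 reads, or 0.5625 CPM, in at least 3 libraries. Among the tested genes, Hoxb9 passed through 1 library in each of 3 populations, Hoxc9 through 2 SMC2 libraries and 1 Progenitor library, and Hoxb3 mainly through the SMC populations. Hoxd8 passed without an Intermediate library.

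The Hox RNA of all 4 populations was centred on the middle of the clusters. Paralogue groups 4 to 8 held 90.43% ± 1.15 (SD, n = 3) of the summed Hox RPKM in SMC1, 88.65% ± 0.919 in Intermediate, 88.38% ± 2.30 in Progenitor and 88.06% ± 1.12 in SMC2. Groups 1 to 3, the most anterior, held between 8.261% and 10.13% on average, and groups 9 to 13, the most posterior, held between 1.216% and 2.863%. The 28 genes together reached 56.69 ± 5.98 RPKM in Intermediate, 50.6 ± 4.43 in SMC2, 41.06 ± 6.57 in Progenitor and 37.07 ± 0.248 in SMC1. Within this span of paralogue numbers, the populations differed in which cluster supplied the RNA.

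**Figure D1:**
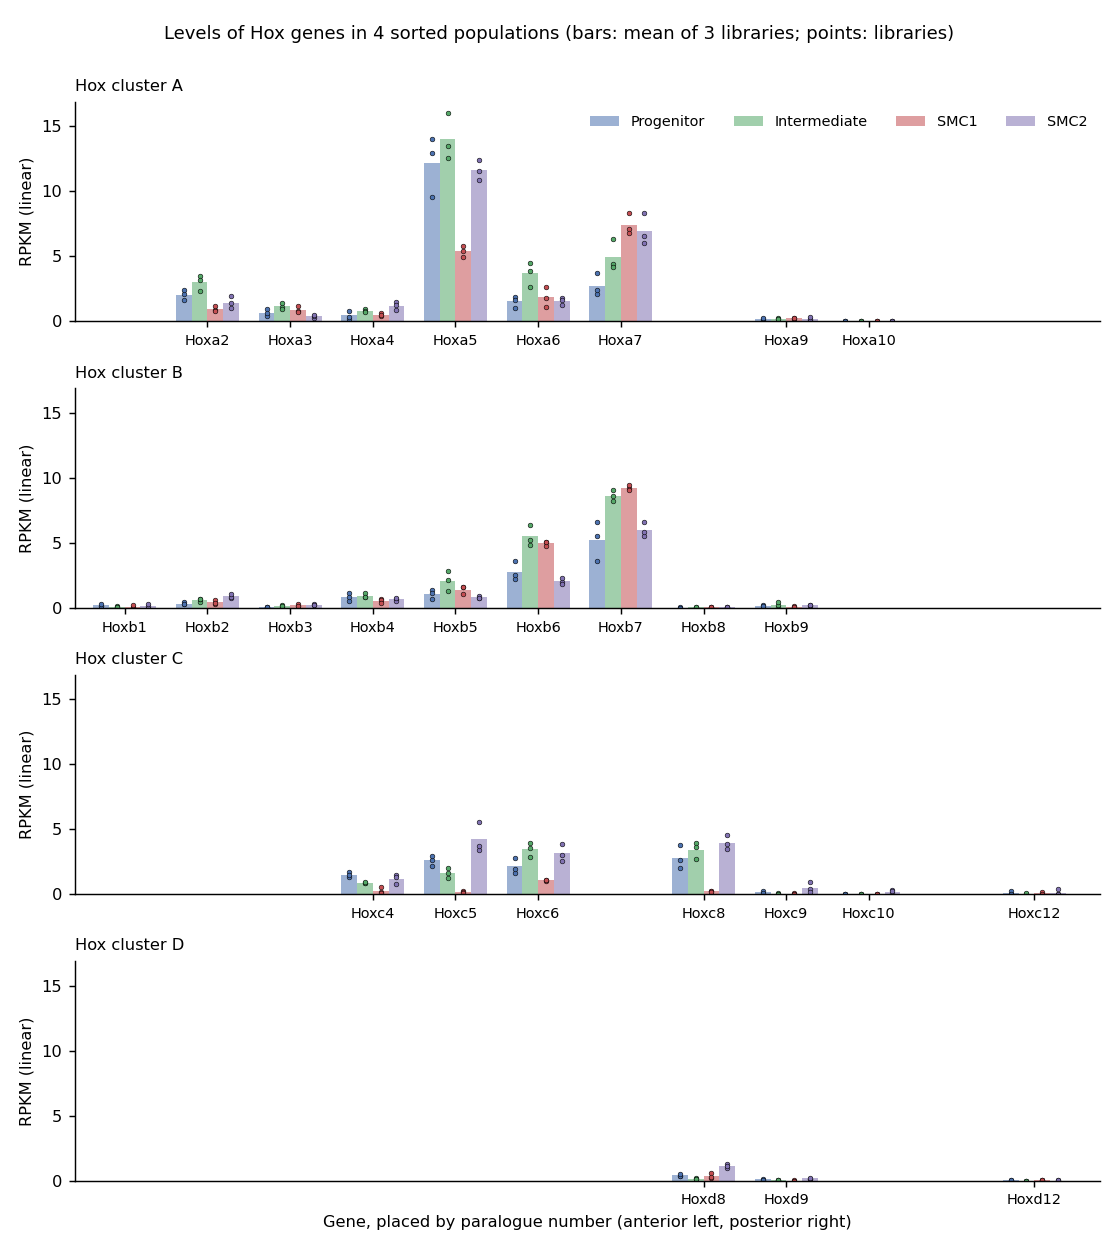
Level of the Hox genes in RPKM (linear axis) placed by cluster and paralogue number, with a bar for the mean of 3 libraries and a point for each library. The tall bars lie at paralogue numbers 5 to 8 in Progenitor, Intermediate and SMC2, and at 5 to 7 in SMC1. In SMC1 the bars of cluster C are low, while Hoxa7 and Hoxb7 stand at 7.413 and 9.236 RPKM.

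Cluster A supplied about the same share of the summed Hox RPKM in every population, between 48.01% and 50.41% on average. Cluster C supplied 21.7%, 22.7% and 23.5% in the 3 Progenitor libraries, 16.0%, 16.7% and 17.9% in Intermediate, 4.66%, 4.90% and 5.34% in SMC1, and 30.1%, 22.3% and 26.5% in SMC2. Every SMC1 library lay below every library of the other populations. Cluster B supplied 45.94% ± 0.692 in SMC1, 32.33% ± 1.69 in Intermediate, 25.78% ± 2.14 in Progenitor and 22.02% ± 3.14 in SMC2. Shares add up to the whole, so with cluster A near constant a smaller cluster C share leaves a larger cluster B share. As summed RPKM, cluster B reached 17.03 in SMC1, 18.28 in Intermediate, 10.67 in Progenitor and 11.06 in SMC2. Cluster C reached 1.841, 9.527, 9.286 and 13.39 RPKM in the same order. The shares are ratios within a library and do not depend on how libraries were scaled. No test was made on the shares because they sum over the members.

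**Figure D2:**
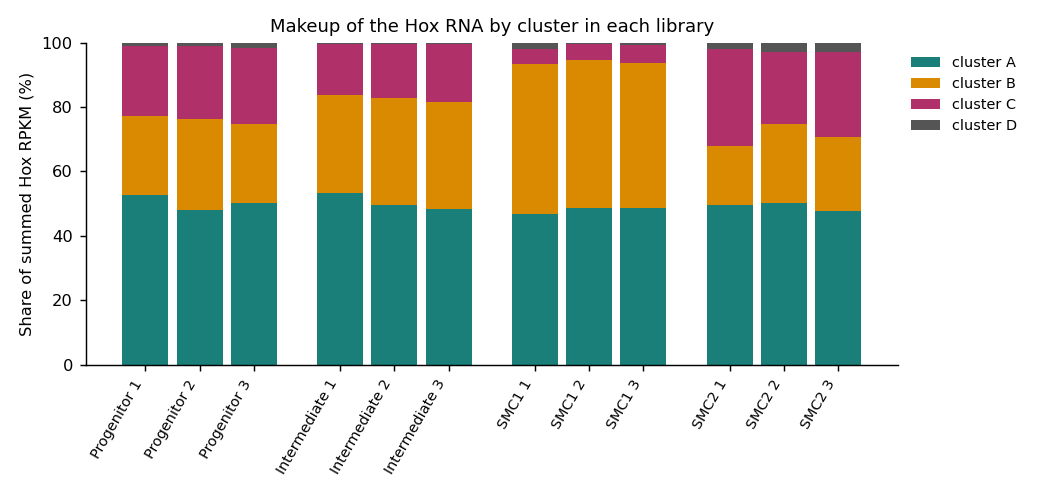
Share of the summed Hox RPKM (%, stacked to 100) supplied by each cluster, with 1 bar for each of the 12 libraries. Cluster A is near the same height in all bars, while cluster C is smallest in the 3 SMC1 libraries, at 4.66% to 5.34%.

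The comparison of SMC2 with SMC1 asks how the smooth muscle populations differ, and 13 of the 21 tested Hox genes were called in it, against 34.6% of all genes tested. Of these, 10 were higher in SMC2, where 16.5% of all genes tested were, and 3 were lower, where 18.1% of all genes were. The median log2 change of the Hox genes was 1.06, against 0 for all genes tested. The 10 included all 5 tested genes of cluster C, as well as Hoxa4, Hoxa5, Hoxb2 and Hoxd8. Of these, Hoxc9 passed the filter without an SMC1 library. Hoxa3, Hoxb6 and Hoxb7 were the 3 that were lower.

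Hoxc5 (chromosome 15, 102967443 to 103017429) belongs to the paralogue group that acts at cervical and upper thoracic levels in the embryo. It stood at 0.764, 0.653 and 0.351 CPM in the SMC1 libraries and at 17.2, 10.6 and 11.5 CPM in the SMC2 libraries, with 8.20, 6.80 and 9.16 CPM in Progenitor and 6.21, 3.96 and 4.98 CPM in Intermediate. SMC1 lay far below the other populations with no overlap, and SMC2 was the highest. The log2 change was 4.44 ± 0.32 (SE) from SMC1 to SMC2 (adjusted p = 1.71e-09), or 22.2 times between the means. From Progenitor to SMC1 it was -3.74 ± 0.32 (adjusted p = 4.97e-09).

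Hoxc8 (chromosome 15, 102990607 to 102994111), a gene of the thoracic paralogue group 8, was likewise lowest in SMC1 and highest in SMC2 on average. Its values were 0.713, 0.653 and 0.469 CPM in SMC1, 13.0, 9.83 and 10.9 CPM in SMC2, 7.52, 10.7 and 5.69 CPM in Progenitor and 11.3, 10.2 and 7.60 CPM in Intermediate. All SMC1 libraries lay below all others, and the other 3 populations overlapped in part. The log2 change was 4.17 ± 0.31 from SMC1 to SMC2 (adjusted p = 2.3e-09), -3.68 ± 0.31 from Progenitor to SMC1 and -3.96 ± 0.31 from Intermediate to SMC1.

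Hoxc4 (chromosome 15, 103018934 to 103036852), the most anterior gene of the cluster, stood at 0.407, 0.187 and 1.52 CPM in SMC1, 3.82, 2.03 and 3.36 CPM in SMC2, 3.37, 4.33 and 3.73 CPM in Progenitor and 2.18, 2.26 and 2.36 CPM in Intermediate. SMC1 was again lowest without overlap, but its library 3 was far above the other two. The log2 change from Progenitor to SMC1 was -2.47 ± 0.49 (adjusted p = 0.0003), and -3.72 without SMC1 library 3. From SMC1 to SMC2 it was 2.16 ± 0.49, and 3.34 without that library.

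Hoxc6 (chromosome 15, 102998257 to 103011881) has a number between those of Hoxc5 and Hoxc8 and held more RNA in SMC1 than either. Like Hoxc8, it lies within the annotated span of Hoxc5. It stood at 2.39, 2.66 and 2.64 CPM in SMC1, 9.34, 6.17 and 7.2 CPM in SMC2, 3.97, 6.80 and 4.67 CPM in Progenitor and 6.96, 9.55 and 8.495 CPM in Intermediate. SMC1 was lowest without overlap here too. The log2 change was 1.56 ± 0.26 from SMC1 to SMC2 (adjusted p = 7.85e-05) and -1.0 ± 0.27 from Progenitor to SMC1 (adjusted p = 0.00397), and whether it differed from the changes of Hoxc5 and Hoxc8 was not tested.

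**Figure D3:**
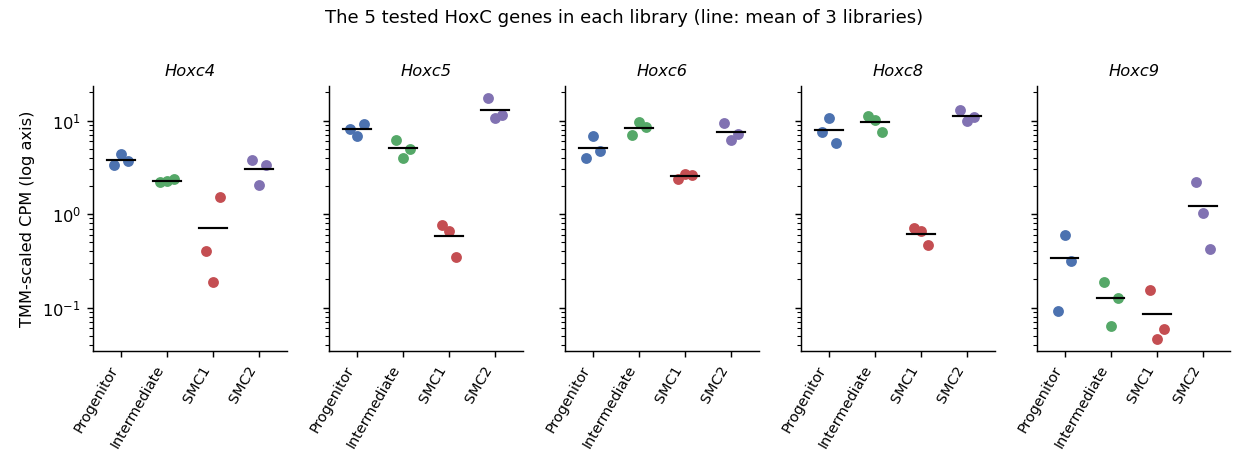
TMM-scaled CPM (log axis) of the 5 tested HoxC genes in each library, with a line at the mean of 3 libraries. In Hoxc4, Hoxc5, Hoxc6 and Hoxc8 the SMC1 points lie below the points of every other population, while Hoxc9 is low in all but SMC2.

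The posterior end of cluster C was near the detection limit. Hoxc9, named here after its values were seen, held 48, 21 and 7 reads in the SMC2 libraries, or 2.21, 1.04 and 0.42 CPM, and no more than 9 reads in any other library. SMC2 did not overlap with SMC1 or Intermediate, and its lowest library fell among the Progenitor values. On the log2 scale, the change from SMC1 to SMC2 was 3.74 ± 0.85 (adjusted p = 0.00157), while the change of 1.92 ± 0.73 from Progenitor to SMC2 (adjusted p = 0.0374) was called under 8 of the 18 alternative settings and subsets that could test it. Hoxc10, also named after its values were seen and not tested, held 14, 3 and 7 reads in SMC2, 1 read in each Intermediate library and 0 reads in all Progenitor and SMC1 libraries. With reads pooled over each group and a floor of 3 reads for a group at 0, Hoxc10 was 7.92-fold higher in SMC2 than in SMC1. Against Progenitor it was 7.19-fold higher. These ratios do not take in the spread between the SMC2 libraries. Exons of Hoxc5 cover 8.7% of the exon bases of Hoxc10 on the same strand, so some of these reads may be from Hoxc5, and how such reads were assigned is not stated in the sources used here. Hoxc12 held 18 reads in all 12 libraries together.

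The genes beside the cluster did not follow it. The 2 nearest tested protein-coding genes on each side, a rule set after values were seen, are Atp5g2 and Calcoco1 on one flank and Smug1 and Cbx5 on the other. From Progenitor to SMC1, where 4 of the 5 tested HoxC genes were lower, all 4 neighbours were higher, with log2 changes of 0.59 ± 0.19, 1.76 ± 0.18, 0.67 ± 0.17 and 0.69 ± 0.17. From SMC1 to SMC2, Cbx5, which encodes the heterochromatin protein HP1 alpha, was lower by a log2 change of -1.23 ± 0.17, and the other 3 were not called, with changes between -0.12 and 0.45.

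**Figure D4:**
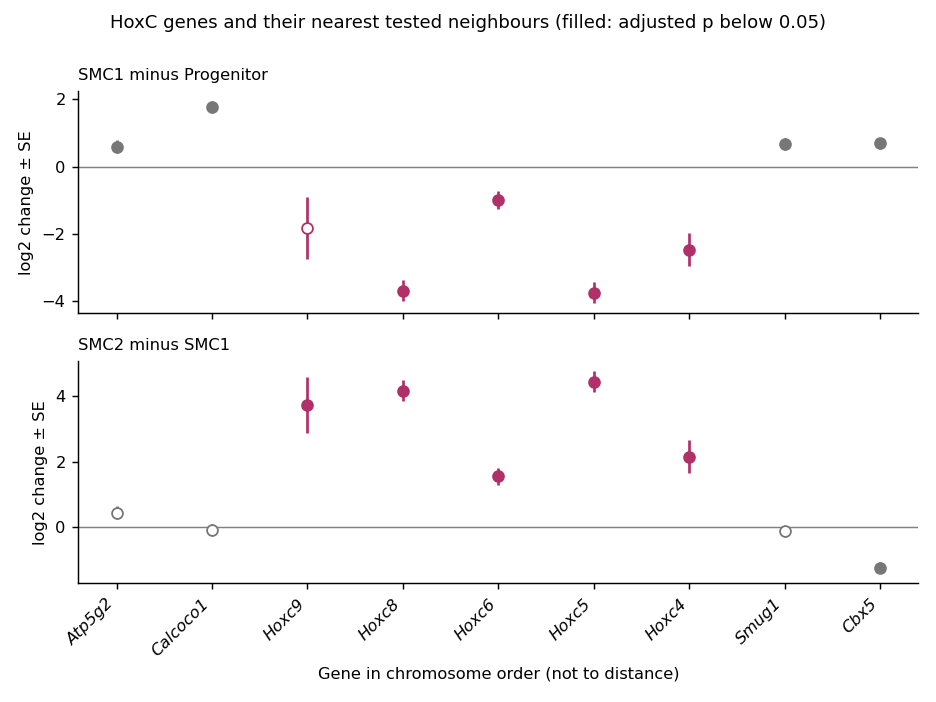
log2 change with its SE for the 5 tested HoxC genes (purple) and their nearest tested neighbours (grey), in chromosome order and not to distance, from Progenitor to SMC1 (top) and from SMC1 to SMC2 (bottom). Filled points have an adjusted p below 0.05; the HoxC genes lie below 0 at the top and above 0 at the bottom, and no neighbour does both.

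Cluster D had 1 tested gene. Hoxd8 (chromosome 2, 74704615 to 74707933) stood at 2.58, 3.51 and 3.0 CPM in SMC2, 1.003, 1.07 and 1.39 CPM in Progenitor, 1.68, 0.513 and 0.761 CPM in SMC1 and 0.497, 0.314 and 0.383 CPM in Intermediate. SMC2 was highest and Intermediate lowest, each without overlap, and SMC1 overlapped with Progenitor. The log2 change was 2.9 ± 0.47 from Intermediate to SMC2 (adjusted p = 2.89e-05) and 1.61 ± 0.42 from SMC1 to SMC2 (adjusted p = 0.00455). No Intermediate library was among those that carried Hoxd8 past the filter. Hoxd9 and Hoxd12 were not tested, and Hoxd9 held 7 reads in each SMC2 library against at most 4 elsewhere.

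The window of 250 bases upstream of the Hoxd8 start (RefSeq, GRCm38.p6, chr2:74704365-74704614, plus strand) is shown because Hoxd8 was the only cluster D gene tested and its window held a retinoic acid receptor motif, AGGTCA, in capitals.
Hoxd8 promoter: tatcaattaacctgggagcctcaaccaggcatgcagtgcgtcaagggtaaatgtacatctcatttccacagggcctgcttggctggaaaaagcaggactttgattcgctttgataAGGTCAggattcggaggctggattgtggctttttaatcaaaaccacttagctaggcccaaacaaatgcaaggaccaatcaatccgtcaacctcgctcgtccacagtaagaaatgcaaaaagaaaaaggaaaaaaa
RefSeq windows were found for 14 of the 28 members. Sought on both strands, AGGTCA was present in 3 of these 14 and in 14.02% of all 32851 windows, the Cdx motif TTTATG in 2 and in 10.76%, the Hox-Pbx motif TGATNNAT in 3 and in 7.68%, the Meis motif TGACAG in 2 and in 15.86%, and the CArG box bound by serum response factor in 0 and in 1.47%. A match describes letters in the window and is not a measured site.

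Paralogues of the same number differed between populations in their share of the group's RNA. In group 8, Hoxc8 supplied 85.61% ± 5.02 of the group's RPKM in Progenitor, 94.49% ± 1.61 in Intermediate and 76.94% ± 4.47 in SMC2, but 34.66% ± 9.64 in SMC1, where Hoxd8 supplied 51.84% ± 14.7. Group 8 as a whole stood at 0.653 RPKM in SMC1, where Hoxd8 held 33, 11 and 13 reads. Both Hoxc8 and Hoxd8 were called higher in SMC2 than in SMC1. In group 5, Hoxa5 supplied most in every population, between 69.99% and 79.2% on average. Hoxc5 supplied 25.18% ± 4.12 of that group in SMC2 and 2.708% ± 0.897 in SMC1, and Hoxb5 supplied 4.839% ± 0.729 and 20.11% ± 4.56. In group 6, Hoxb6 supplied 63.29% ± 6.61 in SMC1 and 30.69% ± 4.52 in SMC2. Within each of these groups the cluster C gene had its smallest share in SMC1.

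Hoxa5 had the highest RPKM of all Hox genes in Progenitor, Intermediate and SMC2, at 12.17, 14.02 and 11.61, while Hoxb7 led in SMC1. Hoxa5 (chromosome 6, 52201754 to 52204587), which is needed for lung and axial patterning in the embryo, stood at 24.2, 26.3 and 18.0 CPM in Progenitor, 30.1, 25.2 and 23.6 CPM in Intermediate, 10.1, 10.9 and 9.37 CPM in SMC1 and 23.3, 21.7 and 20.3 CPM in SMC2. SMC1 lay below all other libraries, Progenitor overlapped with Intermediate and with SMC2, and Intermediate lay just above SMC2. Its log2 change from Progenitor to SMC1 was -1.17 ± 0.18 (adjusted p = 1.27e-05), and from SMC1 to SMC2 it was 1.1 ± 0.18 (adjusted p = 4.25e-05).

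Hoxa7 (chromosome 6, 52214491 to 52221854), a gene of lower cervical and thoracic levels, was lowest in Progenitor. It stood at 6.06, 10.7 and 6.89 CPM there, 18.3, 12.75 and 12.01 CPM in Intermediate, 20.4, 19.6 and 24.0 CPM in SMC1 and 24.1, 17.2 and 18.9 CPM in SMC2. Progenitor did not overlap with any other population, and SMC1 and SMC2 overlapped. By edgeR's test the log2 change from Progenitor was 1.44 ± 0.22 to SMC1 (adjusted p = 2.02e-05), 1.36 ± 0.22 to SMC2 (adjusted p = 3.99e-05) and 0.87 ± 0.23 to Intermediate (adjusted p = 0.00847). The kit does not mark strand, and 20.38% of the exon bases of Hoxa7 overlap the antisense transcript Hoxaas3, so their reads cannot be told apart. Hoxaas3 itself stood at 1.816 CPM in Progenitor and 1.041 CPM in SMC1 and was not called between them.

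The anterior genes of cluster A each had their own order. Hoxa2 (chromosome 6, 52162417 to 52164831), which patterns the hindbrain and second pharyngeal arch, stood at 6.15, 5.65 and 4.22 CPM in Intermediate, 3.74, 2.93 and 4.30 CPM in Progenitor, 1.63, 1.40 and 2.05 CPM in SMC1 and 2.49, 3.41 and 1.80 CPM in SMC2. Intermediate was highest but its lowest library fell within Progenitor, and SMC1 lay below both. In edgeR's fit, the log2 change from Intermediate to SMC1 was -1.66 ± 0.31 (adjusted p = 0.000217).

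Hoxa3 (chromosome 6, 52169062 to 52213336), a gene of thymus, parathyroid and carotid body formation, was lowest in SMC2. It stood there at 1.75, 2.57 and 3.0 CPM, against 4.79, 4.43 and 6.97 CPM in SMC1, 6.84, 8.73 and 5.68 CPM in Intermediate and 2.73, 5.80 and 3.73 CPM in Progenitor. SMC2 did not overlap with SMC1 or Intermediate but did with Progenitor. Its change on the log2 scale from Intermediate to SMC2 was -1.54 ± 0.32 (adjusted p = 0.000403), and 27.12% of the exon bases of Hoxa3 overlap other annotated transcripts. Hoxa6 (chromosome 6, 52206288 to 52208722) stood at 3.42, 3.96 and 2.30 CPM in Intermediate and between 0.934 and 2.29 CPM in all other libraries.

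Cluster B was led by Hoxb7 (chromosome 11, 96286623 to 96290162) in every population. It stood at 14.2, 14.6 and 13.9 CPM in SMC1, 14.0, 13.3 and 12.7 CPM in Intermediate, 8.48, 10.2 and 5.62 CPM in Progenitor and 8.56, 10.2 and 9.06 CPM in SMC2. SMC1 and Intermediate lay above Progenitor and SMC2 without overlap. The log2 change from Progenitor was 0.82 ± 0.2 to SMC1 (adjusted p = 0.00214) and 0.72 ± 0.2 to Intermediate (adjusted p = 0.0143).

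Hoxb6 (chromosome 11, 96292476 to 96301569), the neighbour of Hoxb7, made the same division. It stood at 9.93, 9.37 and 9.90 CPM in SMC1, 10.3, 12.6 and 9.52 CPM in Intermediate, 4.33, 7.07 and 4.99 CPM in Progenitor and 3.96, 4.50 and 3.66 CPM in SMC2. Both SMC1 and Intermediate lay above the other populations without overlap. On the log2 scale, the change from SMC1 to SMC2 was -1.27 ± 0.22 (adjusted p = 0.000146), and from Progenitor to Intermediate it was 0.99 ± 0.22 (adjusted p = 0.00296).

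Hoxb5 (chromosome 11, 96303336 to 96306121), the next gene along, stood at 7.95, 5.97 and 3.64 CPM in Intermediate, 4.38, 2.94 and 4.39 CPM in SMC1, 1.91, 3.8 and 3.16 CPM in Progenitor and 2.16, 2.47 and 2.04 CPM in SMC2. Intermediate and SMC1 each overlapped with Progenitor, and SMC2 lay below Intermediate and SMC1. Its log2 change from Intermediate to SMC2 was -1.39 ± 0.33 (adjusted p = 0.00156), whereas the change of 1.0 ± 0.33 from Progenitor to Intermediate (adjusted p = 0.0326) was called under 9 of 19 alternatives.

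Hoxb2 had its highest level in SMC2. This gene (chromosome 11, 96350525 to 96354012), which acts in hindbrain patterning, stood at 2.76, 3.01 and 3.6 CPM in SMC2, 1.003, 1.47 and 0.948 CPM in Progenitor, 1.55, 2.51 and 2.36 CPM in Intermediate and 1.12, 2.10 and 1.23 CPM in SMC1. SMC2 lay above all other libraries. By edgeR's test the log2 change from Progenitor to SMC2 was 1.46 ± 0.37 (adjusted p = 0.00252), and the change of 0.54 ± 0.35 from Intermediate was not called. Annotated exons of the antisense transcript Hoxb3os cover 27.32% of the exon bases of Hoxb2 and 52.93% of those of Hoxb3. Hoxb3os was higher in SMC2 than in Progenitor too, at 3.258 and 0.4654 CPM (log2 change 2.81), and its part in the counts of Hoxb2 and Hoxb3 was not tested.

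The comparison of Intermediate with Progenitor asks what sets the Intermediate cells apart. Of 21 tested Hox genes 6 were called, against 22.2% of all genes tested. In Intermediate 5 were higher (12.7% of all genes tested were), namely Hoxa6, Hoxa7, Hoxb5, Hoxb6 and Hoxb7, and Hoxd8 was the 1 that was lower (9.46% of all genes were). The median log2 change was 0.7, against 0.08 for all genes. No gene of cluster C was called by edgeR's test or rose by DESeq2, and at an unadjusted p below 0.05 there was 1 in each direction, Hoxc6 with a log2 change of 0.7 ± 0.25 and Hoxc5 with -0.67 ± 0.26. DESeq2 called Hoxc5 lower. With the replicate number as a block, which this pair of populations allows, 6 genes were higher and 2 lower, the added genes being Hoxa3 (adjusted p = 0.0452) and Hoxc5 (adjusted p = 0.0393). The count of 5 fell to 3 without Progenitor library 3 or Intermediate libraries 1 or 2, and the call of Hoxd8 was lost without any 1 of the 6 libraries compared. Hoxd8 had also passed the filter without an Intermediate library.

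The comparisons of the SMC populations with Progenitor shared the same Progenitor libraries. In SMC1, 9 of 21 tested Hox genes were called, against 48.3% of all genes: 3 were higher (Hoxa7, Hoxb6 and Hoxb7), where 25.3% of all genes tested were, and 6 were lower (Hoxa2, Hoxa5, Hoxc4, Hoxc5, Hoxc6 and Hoxc8), where 23.1% were. In SMC2, 8 of 21 were called, against 44.8% of all genes, and all 8 were higher, where 23.1% of all genes were. They included Hoxa4, Hoxa7, Hoxb2, Hoxb3, Hoxc5, Hoxc9 and Hoxd8. Of these, Hoxb3 passed the filter without a Progenitor library, and Hoxa4 and Hoxc9 with 1 each. None was lower in SMC2 by edgeR's test or by DESeq2, where 21.7% of all genes were, and Hoxa3 alone was lower at an unadjusted p below 0.05. The count of 8 was 3 without Progenitor library 1, 4 without SMC2 library 1 or 2, and 5 without Progenitor library 3 or SMC1 library 2. The median log2 change of the Hox genes was -0.22 in SMC1 and 0.47 in SMC2, against 0 and 0.06 for all genes.

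Against Intermediate, 9 of 21 tested Hox genes were called in SMC1 (41.6% of all genes tested) and 10 in SMC2 (44.6%). SMC1 was higher for 2, Hoxa7 and Hoxd8 (19.7% of all genes tested), and lower for 7, namely Hoxa2, Hoxa5, Hoxa6 and the same 4 cluster C genes as against Progenitor (21.9% of all genes). The calls of Hoxa7 and Hoxd8 were each lost without Intermediate library 2 or 3 or SMC1 library 1. SMC2 was higher for 4, including Hoxc5, Hoxc9 and Hoxd8 (21.4% of all genes), of which Hoxc9 and Hoxd8 passed the filter without an Intermediate library. SMC2 was lower for 6, Hoxa2, Hoxa3, Hoxa6, Hoxb5, Hoxb6 and Hoxb7 (23.2% of all genes). Hoxa4 and Hoxb4, which share a number with Hoxc4, ranged from 0.365 to 2.35 and from 0.937 to 2.93 CPM over all libraries. Hoxa9 ranged from 0.638 to 1.80 CPM and was called in none of the 6 comparisons.

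**Figure D5:**
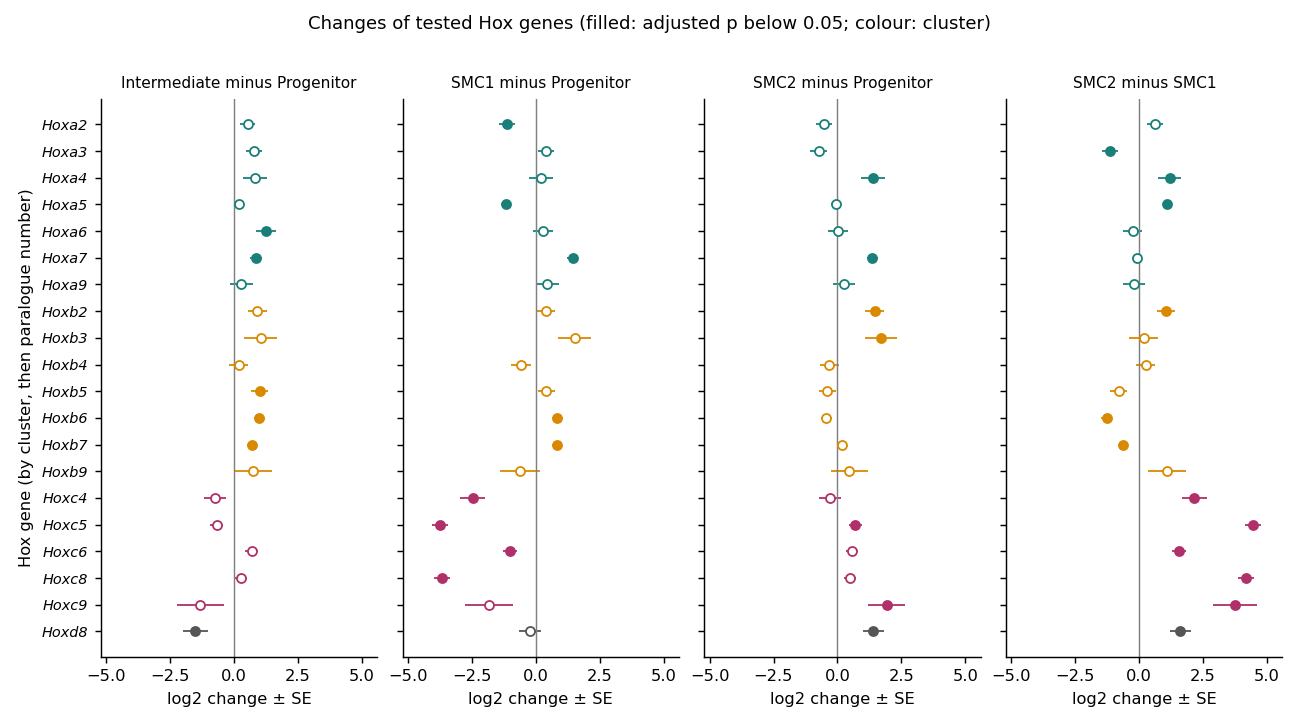
log2 change with its SE for tested Hox genes in 4 of the 6 comparisons, grouped by cluster (colour) and ordered by paralogue number. Filled points have an adjusted p below 0.05; the 5 cluster C genes lie at the left in SMC1 minus Progenitor and at the right in SMC2 minus SMC1, up to 4.44 for Hoxc5.

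The changes showed no order by paralogue number. Across the 21 tested genes, Spearman's rho between the number and the log2 change lay between -0.16 and 0.17 in the 6 comparisons, as a description over genes that share libraries and clusters. The mean paralogue number weighted by RPKM was 5.486 ± 0.142 in Progenitor, 5.604 ± 0.0343 in Intermediate, 5.729 ± 0.0728 in SMC2 and 5.953 ± 0.0427 in SMC1. Progenitor and Intermediate libraries overlapped, SMC2 began just above Intermediate (5.648 against 5.638), and SMC1 lay above all others.

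Partners and regulators of Hox genes are given as lists, whose counts stand beside the shares of all genes called. Whether a list differed from all genes was not tested. Of 11 tested TALE homeodomain genes, which encode the Pbx, Meis, Pknox and Tgif cofactors, 3 were higher and 2 lower in SMC2 than in SMC1, where 16.5% and 18.1% of all genes were. Meis1 stood at 74.42 ± 9.66 CPM in Intermediate, 37.49 ± 1.58 in Progenitor, 32.84 ± 2.87 in SMC1 and 13.54 ± 1.57 in SMC2 (log2 change from SMC1 to SMC2 -1.28 ± 0.16). Pknox2 fell along with it by a log2 change of -1.7 ± 0.24, whereas Meis2 rose by 1.02 ± 0.17 and Tgif1 by 0.57 ± 0.17. The median of the list was -0.06, against 0 for all genes.

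Retinoic acid, made by aldehyde dehydrogenases and read by Rar and Rxr receptors, is a known regulator of Hox genes. Of 16 tested genes of its pathway, 3 were higher and 7 lower in SMC1 than in Progenitor, where 25.3% and 23.1% of all genes were, and the median log2 change was -0.74 against 0 for all genes. The enzyme gene Aldh1a1 stood at 601 ± 17.4 CPM in Intermediate, 364.6 ± 37.9 in Progenitor, 61.08 ± 5.58 in SMC2 and 13.73 ± 4.01 in SMC1, and Aldh1a3 at 8.433 ± 1.69, 39.06 ± 6.95, 2.208 ± 0.706 and 1.519 ± 0.738. From SMC1 to SMC2, Rxrg rose by a log2 change of 3.71 ± 0.34 and Rarg fell, with a change of -1.36 ± 0.24. In that comparison 3 genes of the list were higher and 4 lower, so 7 of 16 were called, against 34.6% of all genes.

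Of 12 listed Cdx, ParaHox and other upstream factors 3 were tested, and all 3 were lower in SMC1 than in Progenitor and higher in SMC2 than in SMC1, where 23.1% and 16.5% of all genes were. Gdf11, a secreted factor that acts on posterior Hox genes in the embryo, stood at 1.54 ± 0.118 CPM in SMC1 and 17.71 ± 5.78 CPM in SMC2. Egr2, a zinc finger factor of hindbrain patterning, stood at 90.8 ± 12.6 CPM in SMC1 and 157.7 ± 15.4 CPM in SMC2.

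Polycomb and Trithorax proteins hold Hox clusters silent or active. Of 26 tested genes, 2 were higher and 6 lower in SMC2 than in SMC1, with a median log2 change of -0.27, and this count was no larger a share than the 34.6% of all genes called. Kdm6b, an eraser of the Polycomb mark, rose from 4.519 ± 0.318 to 23.24 ± 0.827 CPM (log2 change 2.36 ± 0.28). From Progenitor to SMC1, 9 were higher and 3 lower, near the 48.3% of all genes called. There Cbx7 rose by 1.43 ± 0.22, and Kdm6b fell with a change of -1.97 ± 0.28. Of the 5 tested noncoding transcripts of the clusters, Hoxb3os was higher and Hoxb5os lower in SMC2 than in SMC1.

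Other regional factors of mesoderm went in both directions. Of 15 tested, 6 were higher and 3 lower in SMC2 than in SMC1 (34.6% of all genes were called), and 5 were higher and 9 lower in SMC1 than in Progenitor (48.3% of all genes). Meox2, a homeobox gene of somite and vascular cells, stood at 99.44 ± 16.0 CPM in Intermediate, 74.47 ± 5.997 in Progenitor, 49.03 ± 11.2 in SMC2 and 7.912 ± 3.16 in SMC1, with its lowest level in SMC1 as for the cluster C genes. Gata6 and Tbx18, factors of the outflow tract and of epicardium and mural cells, had the opposite order between the SMC populations, at 82.14 ± 4.36 and 98.96 ± 11.4 CPM in SMC1 against 18.44 ± 6.53 and 42.64 ± 9.46 CPM in SMC2. The forelimb and heart factor Tbx5 was called higher in SMC2 than in each of the other populations.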

How the data were processed

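The authors deposited whole-number read counts per gene for 12 libraries. Per the submitters' processing notes, reads were aligned with STAR 2.5.2a to mm10 and analysed with DESeq2 1.26.0; the sources used here do not name the counting program or its annotation. Libraries were made from poly(A) RNA with a SMART-Seq v4 kit, per the labels' protocols, which does not mark strand.

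Counts were fitted with edgeR 4.0.16 (limma 3.58.1, R 4.3.3): filterByExpr, TMM factors, 1 mean per population over all libraries, robust quasi-likelihood F tests, two-sided, with Benjamini-Hochberg adjustment over 19016 genes. SEs of log2 changes were derived from the F statistics. DESeq2 1.42.0 was an alternative. The pipeline was tested on simulated data. RPKM used TMM-scaled libraries and the union of GENCODE M21 exons. Counting error limits genes with few reads, and intervals were not computed.

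The members and the gene lists were chosen with earlier results of these data known. Values in every library are given for the Hox genes among the 5 largest called changes of a comparison with at least 2 CPM in the higher population, or with the highest RPKM of their cluster in a population. Of other lists, up to 4 genes with the smallest adjusted p are named. Same-numbered Intermediate and Progenitor libraries deviated together (correlations 0.171, 0.191 and 0.17), so those numbers were taken to pair them; the numbers come from the labels, which do not say what they mark. Alternatives were other scaling, filters, DESeq2, fits of 2 populations, the replicate block, other gene lengths and leaving out each library. Some items are not reported here.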

Additional observations from a re-analysis of the deposited data

How the results depend on the processing

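Of 55 calls of a Hox gene in a comparison, 35 held under every alternative run, 20 were lost under at least 1, and 0 reversed. The calls of Hoxc4, Hoxc5, Hoxc6 and Hoxc8 in SMC1 against each other population were among the 35. Upper-quartile scaling moved the median log2 change of all genes from Progenitor to SMC1 to -0.187 and from SMC1 to SMC2 to 0.107, and left 3 Hox genes higher in Intermediate than in Progenitor. The 1 gene lower in Intermediate became 2 under upper-quartile scaling, DESeq2, a stricter filter or the replicate block, and 3 in a fit of those 2 populations. Without the filter or with a stricter one, 1 gene was lower in SMC2 than in Progenitor instead of 0. Without the filter or in a fit of 2 populations, 1 gene was higher in SMC1 than in Intermediate. Leaving out each library gave 3 to 7 genes higher and 0 to 2 lower in Intermediate than in Progenitor, 3 to 9 higher and 0 to 1 lower in SMC2 than in Progenitor, and 0 to 2 higher in SMC1 than in Intermediate. The cause of these moves was not tested. In each of the other 5 comparisons at least 1 same-numbered correlation was weaker than those of Intermediate and Progenitor. The lowest of each lay between -0.018 (Progenitor and SMC2) and 0.079 (Intermediate and SMC1). The labels use the same numbers in every population, so these correlations cannot decide whether the libraries are paired there. There the replicate block changed no count by over 1.5 times (4 genes higher in SMC1 than in Progenitor, and 7 in SMC2), and each library correlated best with its own number between SMC1 and SMC2 alone, which is a hint from the data and not the design. The weighted mean paralogue number kept its order of populations under every gene length and member set tried. Without members whose exons overlap another gene it was 6.167 in SMC1, 6.116 in SMC2, 5.98 in Intermediate and 5.858 in Progenitor. With the longest transcript as length it was 5.665 in Intermediate and 5.83 in SMC2, and without length correction 5.542 in Intermediate and 5.838 in SMC1. The cluster C share was lowest in SMC1 throughout. With the longest transcript it was 24.91% in Progenitor, 19.3% in Intermediate and 5.718% in SMC1; without length correction it was 28.03%, 20.91% and 5.658%, and 31.11% in SMC2; without overlapping members it was 19.09% in Intermediate and 6.817% in SMC1.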
